A study of Mus musculus with 6 samples.

Results

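Focal adhesions are the sites where integrins tie the actin cytoskeleton of a cell to the matrix around it. Talin binds the integrin tail, vinculin binds talin and actin, paxillin gathers signalling proteins, and tensins and zyxin load onto adhesions and stress fibres that are under tension. LIM domains are paired zinc fingers that bind other proteins, and they occur in paxillin, zyxin, Lpp and the FHL proteins. In the mammary gland such proteins are abundant in contractile myoepithelial cells, in fibroblasts and in the smooth muscle of vessels. The 10 genes described here are the tensins Tns1 and Tns3, the FHL genes Fhl1, Fhl2 and Fhl3, and the adhesion adaptors Zyx, Vcl, Pxn, Tln1 and Lpp. They were taken by gene symbol, with every probe annotated to them, and all 10 are among the 9354 genes measured. The array carried 25 probes for them out of 45279, and 15 of these 25 were kept. A probe counts as above background at a detection p under 0.05, and was kept when 3 or more arrays reached that.

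The series profiled breast tumours of FVB mice by Illumina bead array, with 1 array per tumour. The 3 control tumours carried 2 floxed alleles of Cyp27b1 and no Cre recombinase, and the 3 knockout tumours carried the same floxed alleles and Cre. Cyp27b1 encodes the enzyme that makes active vitamin D, and the study asked what losing it in the mammary epithelium does to the tumours. All 6 tumours share the floxed alleles, and Cre is present only in the knockout tumours, so Cre and the deletion cannot be told apart. The sources used here do not give the promoter that drives Cre, how the tumours arose, or the age of the mice. No label ties a tumour to an animal, so the spread between samples may be technical. The summed signal of an array ran from 1.07e7 to 1.48e7, and 33.4% to 36.1% of probes were above background. The epithelial keratins Krt8, Krt18 and Krt14 were above background, whereas Epcam, Esr1 and Pgr were not. Of 44 measured markers in the 9 marker lists, 16 passed an adjusted p of 0.05. In the knockout tumours 11 of the 44 were called lower (25%) and 5 higher (11.4%), against 5.63% and 4.47% of all genes.

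These genes were chosen by the knockout minus control difference in an earlier look at the same arrays, in which Tns1 and Fhl1 lay among the largest falls. Their differences are therefore given as a description, with a standard error from limma and with no p-value. Values are normalized log2 signals, the members' differences are knockout minus control, and each gene is read from its brightest kept probe unless another is named. In these bulk samples, fewer cells of a type and less RNA per cell cannot be told apart.

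Promoter sequence is shown for the members whose window holds a CArG box, the site bound by serum response factor, a regulator of many contractile and adhesion genes. RefSeq promoters, from 250 bases before to 50 after a start in GRCm38.p6, were found for 9 of the 10 genes in 12 windows, and Pxn was not matched. The box was searched on both strands, which for this motif are equivalent. It was present in 4 windows of 3 genes, Fhl1, Fhl2 and Vcl. Over all genes 1.81% had a window with the box (1.63% of 32851 windows), and 11.8% of 68 measured genes of the wider pathway did. The 250 bases before each of the 4 starts are given 5′ to 3′ along the gene, with the CArG box in capitals.
Fhl1, chrX:56779433-56779682, plus strand: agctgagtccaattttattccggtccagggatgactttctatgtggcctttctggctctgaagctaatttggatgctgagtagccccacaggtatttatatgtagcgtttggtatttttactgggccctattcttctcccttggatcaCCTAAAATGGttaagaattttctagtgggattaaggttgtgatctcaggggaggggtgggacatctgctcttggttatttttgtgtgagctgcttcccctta
Fhl2 downstream start, chr1:43163962-43164211, minus strand: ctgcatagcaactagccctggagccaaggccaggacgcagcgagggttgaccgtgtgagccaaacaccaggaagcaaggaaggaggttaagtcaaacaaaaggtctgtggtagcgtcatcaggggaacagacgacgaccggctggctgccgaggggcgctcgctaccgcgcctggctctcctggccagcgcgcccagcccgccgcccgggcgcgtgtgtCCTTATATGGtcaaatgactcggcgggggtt
Fhl2 upstream start, chr1:43196762-43197011, minus strand: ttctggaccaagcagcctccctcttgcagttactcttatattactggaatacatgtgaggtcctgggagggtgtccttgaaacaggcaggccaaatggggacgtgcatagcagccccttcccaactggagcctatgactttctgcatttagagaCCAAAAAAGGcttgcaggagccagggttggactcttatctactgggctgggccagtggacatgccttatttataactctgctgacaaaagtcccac
Vcl, chr14:20929148-20929397, plus strand: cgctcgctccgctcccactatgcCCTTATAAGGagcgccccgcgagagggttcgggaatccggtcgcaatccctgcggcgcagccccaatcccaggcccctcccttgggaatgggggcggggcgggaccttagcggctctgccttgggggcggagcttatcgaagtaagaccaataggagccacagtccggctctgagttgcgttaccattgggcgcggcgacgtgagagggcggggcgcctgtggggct
The box of Vcl lay farthest from its start, with its first base 227 bases before it. In Fhl2 both starts had a box, its first base 31 bases before the downstream and 96 before the upstream start. In Fhl1 the box lay 102 bases before the start at chrX:56779433-56779732, and the other Fhl1 window, chrX:56786277-56786576, had none. The core motif of TEAD factors, the DNA-binding partners of YAP, was searched as CATTCC and its reverse complement GGAATG. It does not overlap the CArG box in any member and was found in Vcl and in 1 window of Lpp, that is in 2 of 9 members (22.2%) against 16.6% of all genes. The windows of Tns1, Tns3, Fhl3, Zyx and Tln1 held neither motif. A match is only a run of letters within this window.

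**Figure D1:**
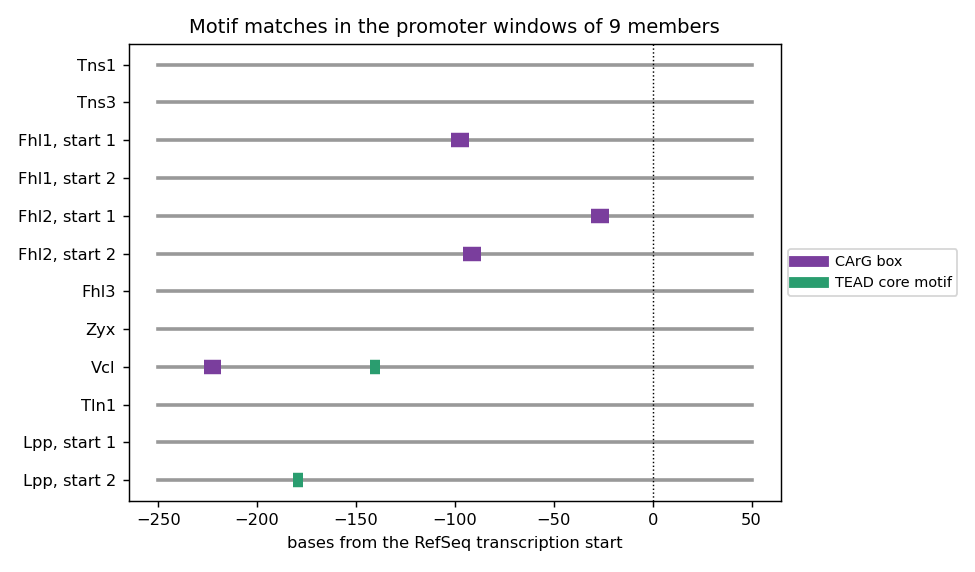
Position of motif matches in the 12 promoter windows of 9 members, in bases from the RefSeq start (x axis, start at the dotted line). Purple blocks are CArG boxes and green blocks the TEAD core motif, in lengths to scale. Boxes appear in Fhl1, in both windows of Fhl2 and in Vcl.

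Tensins join integrin tails to actin filaments at mature adhesions. Tns1 had log2 signals of 9.84, 9.04 and 8.80 in control tumours 1, 2 and 3, and of 4.70, 4.64 and 6.03 in knockout tumours 1, 2 and 3. All control tumours lay above all knockout tumours, with a gap of 2.77 log2 units between the groups. Knockout 3 was the 1 knockout tumour in which the probe was above background. As deposited, before normalization, the signals were 1083, 629 and 393 in the controls against 114, 108 and 158 in the knockouts. Tns1 passed the filter on dim probes through the control tumours and this 1 knockout tumour. The mean was 9.23 ± 0.55 in control and 5.12 ± 0.79 in knockout tumours (SD, n = 3 each), a difference of -4.10 ± 0.43 (SE). Tns1 lies at chr1:73910232-74124548 in GRCm38.p6. A second, dim Tns1 probe was above background in 2 control tumours and in no knockout tumour.

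Tns3, a tensin with the same domain layout, depended on the probe. Its brightest probe had log2 signals of 10.78, 10.44 and 10.59 in the control tumours and 9.72, 9.75 and 10.47 in the knockout tumours. Knockout 3 lay within the control range here, so the groups overlapped, and the difference was -0.62 ± 0.26 (SE). The other probes pointed the other way, at 0.84 ± 0.41 and 1.19 ± 0.46 (SE). In the probe with the larger of these differences the controls stood at 6.55, 5.96 and 6.46 and the knockouts at 6.42, 7.77 and 8.35. Knockout 1 lay within the control range there, while knockout 2 and 3 were above every control tumour. With all 3 probes averaged the Tns3 difference was 0.47, so the direction for this gene is uncertain. The platform annotation ties all 3 probes to the same transcript.

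The FHL genes encode small proteins made of LIM domains and little else. FHL1 is known from striated muscle, where it acts in sarcomere and stress signalling. Fhl1 had log2 signals of 11.40, 10.93 and 9.71 in control tumours 1, 2 and 3 and of 5.41, 6.29 and 7.49 in knockout tumours 1, 2 and 3. The groups were separated by 2.22 log2 units, and every tumour was above background. The control mean was 10.68 ± 0.87 and the knockout mean 6.40 ± 1.04 (SD, n = 3 each), a difference of -4.28 ± 0.59 (SE), or 19.5-fold lower. A probe for another transcript of Fhl1 gave -4.52 ± 0.52 (SE). A probe annotated to the same transcript as the brightest one was not above background in any tumour. Fhl1 lies at chrX:56731209-56793346 in GRCm38.p6.

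FHL2 is a LIM cofactor that shuttles between adhesions and the nucleus. Fhl2 had log2 signals of 9.06, 8.76 and 8.53 in the control tumours and 6.85, 8.01 and 7.94 in the knockout tumours. Knockout 1 stood apart as the lowest tumour, and the groups did not overlap. The difference was -1.18 ± 0.34 (SE), and -0.80 without knockout 1. FHL3 binds actin and is best known from skeletal muscle. Fhl3 lay at 6.27, 6.04 and 6.64 in control tumours and at 5.51, 5.97 and 5.42 in knockout tumours. The groups were separated by only 0.08 log2 units, and the difference was -0.69 ± 0.24 (SE).

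Zyxin and Lpp, relatives with LIM domains at the carboxyl end, bind alpha-actinin and the actin regulator VASP. Zyx had log2 signals of 13.93, 13.86 and 13.84 in the control tumours and 13.08, 12.999 and 12.84 in the knockout tumours. The tumours of each group were nearly alike and the groups were 0.76 log2 units apart. The control mean was 13.88 ± 0.04 and the knockout mean 12.97 ± 0.12 (SD, n = 3 each), a difference of -0.90 ± 0.18 (SE), or 1.87-fold lower. Zyx lies at chr6:42349511-42360213 in GRCm38.p6. Lpp was read by 3 kept probes that were all lower. The brightest had log2 signals of 8.53, 8.25 and 8.79 in control and 7.32, 7.98 and 8.31 in knockout tumours, where knockout 3 exceeded control 2. Its difference was -0.65 ± 0.29 (SE), or -0.38 without knockout 1, and the other probes of Lpp gave -1.15 ± 0.32 and -0.95 ± 0.25 (SE), in both of which the groups did not overlap.

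Talin, vinculin and paxillin form the core link from integrin to actin. Tln1, which binds and activates integrins, had log2 signals of 5.84, 6.02 and 6.13 in control and 5.72, 5.91 and 5.22 in knockout tumours. The groups overlapped, and the difference was -0.38 ± 0.23 (SE) for a probe of low signal, or -0.18 without knockout 3. Vcl, which reinforces the talin link under load, lay at 10.91, 10.53 and 10.31 in control and at 9.45, 10.13 and 10.14 in knockout tumours. The groups were 0.16 log2 units apart, and the difference was -0.67 ± 0.27 (SE), or -0.44 without knockout 1. Pxn, the paxillin scaffold, was the member on the other side of 0. It had log2 signals of 7.47, 7.24 and 6.86 in control and 7.89, 7.89 and 7.39 in knockout tumours. Knockout 3 fell just below control 1, so the groups overlapped, and the difference was 0.53 ± 0.25 (SE). The other 4 probes of Pxn were not kept.

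**Figure D2:**
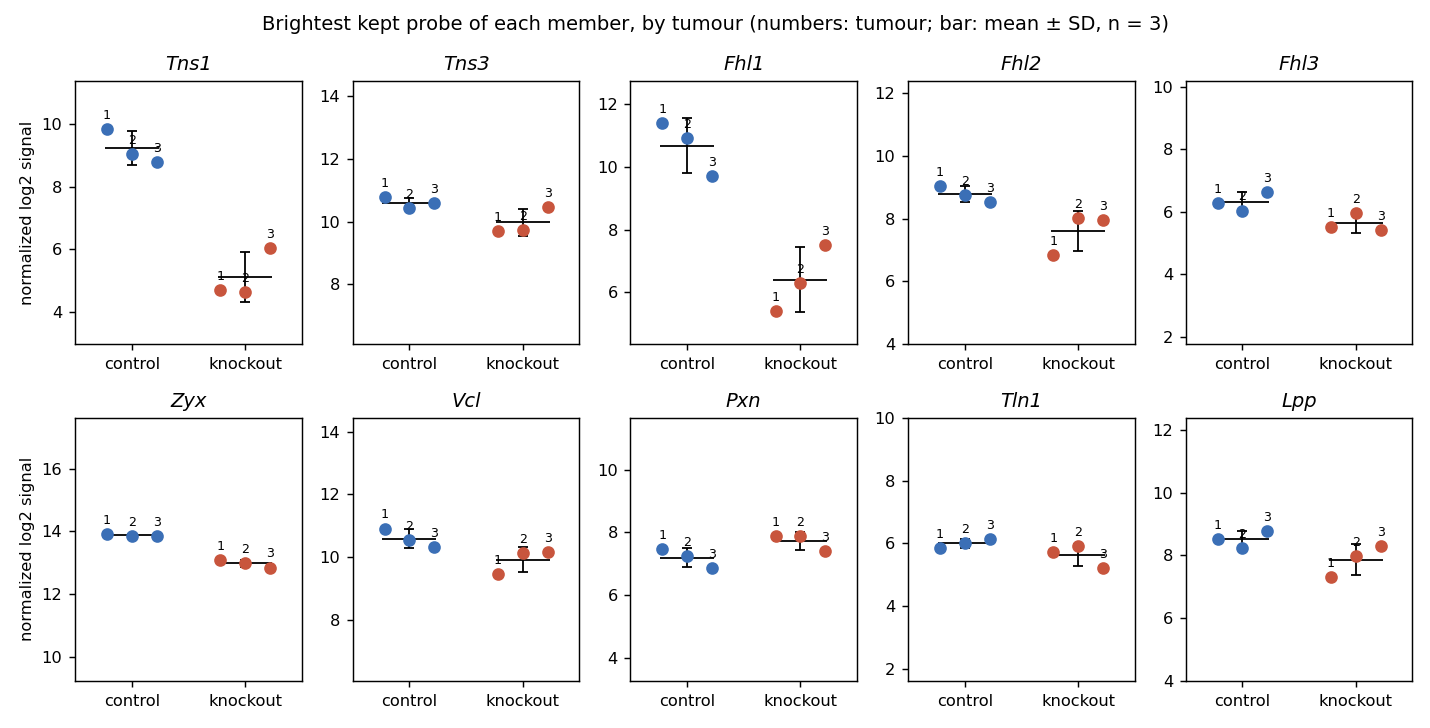
Normalized log2 signal (y axis) of the brightest kept probe of each of the 10 genes in the 3 control (blue) and 3 knockout (red) tumours, numbered as in the labels. Black bars are mean ± SD (n = 3), and every panel spans the same number of log2 units. Tns1 and Fhl1 show the widest gaps, Zyx the smallest spread within a group, and Pxn is the gene with a higher mean in the knockout tumours.

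Over the 10 genes the median log2 difference was -0.68 and 9 were below 0. Over all 9354 genes the median was 0.05 and 45.8% were below 0. For 6 members (Tns1, Fhl1, Fhl2, Fhl3, Zyx and Vcl) all knockout tumours lay below all control tumours, where 14.9% of all genes did so. None of the 10 had all knockout tumours above all controls, where 17.2% of all genes did. In the limma fit over all kept probes Tns1, Fhl1 and Zyx passed an adjusted p of 0.05, all lower, where 5.63% of all genes were called lower. As this contrast chose the members, nothing is read from these shares. Zyx no longer passed when any 1 of 5 tumours was left out, knockout 1 being the exception.

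The spread between tumours of a group was not used to choose the genes, and it differed widely among them. The within-group SD of Zyx was 0.09 log2 units, and 2.18% of all genes had a smaller one. That of Fhl1 was 0.96, larger than in 96.5% of all genes, and that of Tns1 was 0.68, larger than in 91%. These ranks take no account of brightness, and Zyx was the brightest member. The Tns1 spread includes knockout 1 and knockout 2, in which its probe was not above background. The other 7 members lay between 0.27 and 0.50, near or above the median of 0.30 over all genes. Control 1 had the highest signal of the control tumours for 7 members, and control 3 the lowest for 6. Control 3 was also the highest control for Fhl3, Tln1 and Lpp. Among the knockout tumours, knockout 1 was lowest for 5 members (Tns3, Fhl1, Fhl2, Vcl and Lpp) and knockout 3 highest for Tns1, Tns3, Fhl1, Vcl and Lpp.

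**Figure D3:**
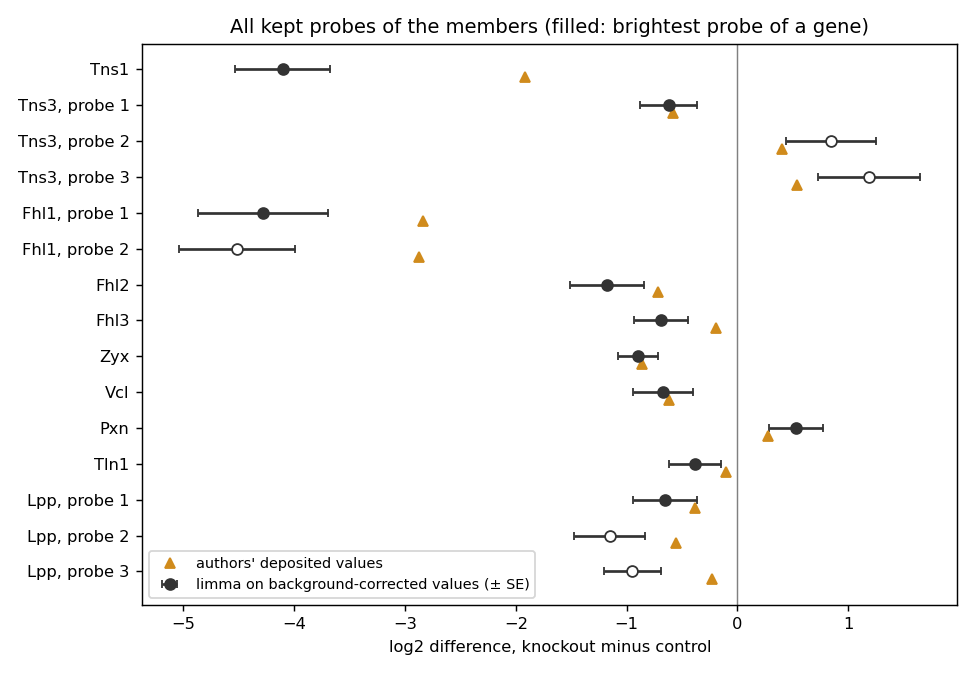
Log2 difference (x axis, knockout minus control) of all 15 kept probes of the 10 genes. Circles with bars are the limma estimate ± SE on background-corrected values, filled for the brightest probe of a gene, and triangles are the differences in the authors' deposited values. Of the 15 probes 12 lie below 0, and the probes of Tns3 fall on both sides.

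The size of the largest differences depended on the treatment of the background. In the authors' deposited values the difference was -1.92 for Tns1 and -2.84 for Fhl1, against -4.10 and -4.28 here. The authors' values gave -0.20 for Fhl3, -0.10 for Tln1, -0.39 for Lpp, -0.72 for Fhl2 and 0.28 for Pxn, each smaller than the background-corrected value by over 1.5 times. For the bright probes of Zyx (-0.86), Vcl (-0.62) and Tns3 (-0.58) the deposited values were close to those given above.

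Most markers of contractile and matrix cells moved the same way as most members. Over all genes limma called 5.63% lower and 4.47% higher. Of 10 measured markers of smooth muscle, pericytes and myofibroblasts, limma called 6 lower and 0 higher, with a median log2 difference of -1.98. Tagln, an actin-binding protein of such cells, fell by 4.93 (limma adjusted p = 0.0032), and Myh11, smooth muscle myosin, fell by 3.17 on the log2 scale (adjusted p = 0.0031) and was above background in 1 of 3 knockout tumours. Rgs5, also called lower, was not above background in any knockout tumour and so passed the filter only through the control tumours. Notch3 went the other way, at 0.95 (limma adjusted p = 0.20). For it all knockout tumours lay above all controls, where 17.2% of all genes did. Smtn was at -0.13 (adjusted p = 0.86), with overlapping groups. All of these markers were chosen after their values were seen. The summed normalized signal of the list, most of it from Acta2, ran from 35500 to 38300 in control and from 3280 to 12400 in knockout tumours. Cnn1 was not above background, and this list does not tell smooth muscle from contractile myoepithelial cells. Of 9 measured fibroblast and matrix markers 5 were called lower (median -2.77), namely Col1a1, Col3a1, Dcn, Pdgfrb and Thy1, named after their values were seen. Their summed signal ran from 13700 to 23400 in control and from 542 to 4760 in knockout tumours, with Fap and Postn not above background. Of 8 measured luminal markers 4 were called higher (Cdh1, Gata3, Elf5 and Cldn7, named after their values were seen) and 0 lower (median 1.59), with a summed signal of 2940 to 7220 against 6780 to 14500, and with Epcam, Esr1 and Pgr not above background. Of the called luminal markers, Elf5 was above background in 1 of 3 control tumours and Cldn7 in 2 of 3. The part of these cells in the members' differences was not tested.

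By tumour, the mean of the fibroblast markers stood highest in control 3, at 2.21 log2 units above the mean of all 6 tumours. Tns1 (1.62) and Fhl1 (1.17) had their lowest control values there. That height rested mostly on Lum, Pdgfra and Dcn, chosen after their values were seen. Lum was at 9.98 in control 3 against 5.39 in control 1. Col1a1 was nearly level, at 12.78 against 12.70, as was Col3a1, at 6.55 against 6.54. The smooth muscle markers averaged 1.12 above the mean in both control 1 and control 2 and 0.65 in control 3. In knockout tumours 1, 2 and 3 the smooth muscle markers averaged -1.56, -0.83 and -0.50, and the fibroblast markers -2.33, -1.15 and -0.42. Fhl1 stood at -3.12, -2.25 and -1.05 in these tumours. Tns3, Fhl1, Vcl and Lpp had the same order at both ends, lowest in knockout 1 and highest in knockout 3. The other 6 members did not, and 4 of them, Fhl3, Zyx, Pxn and Tln1, were lowest in knockout 3. Zyx stood at -0.34, -0.43 and -0.58, and Pxn at 0.43, 0.43 and -0.07.

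**Figure D4:**
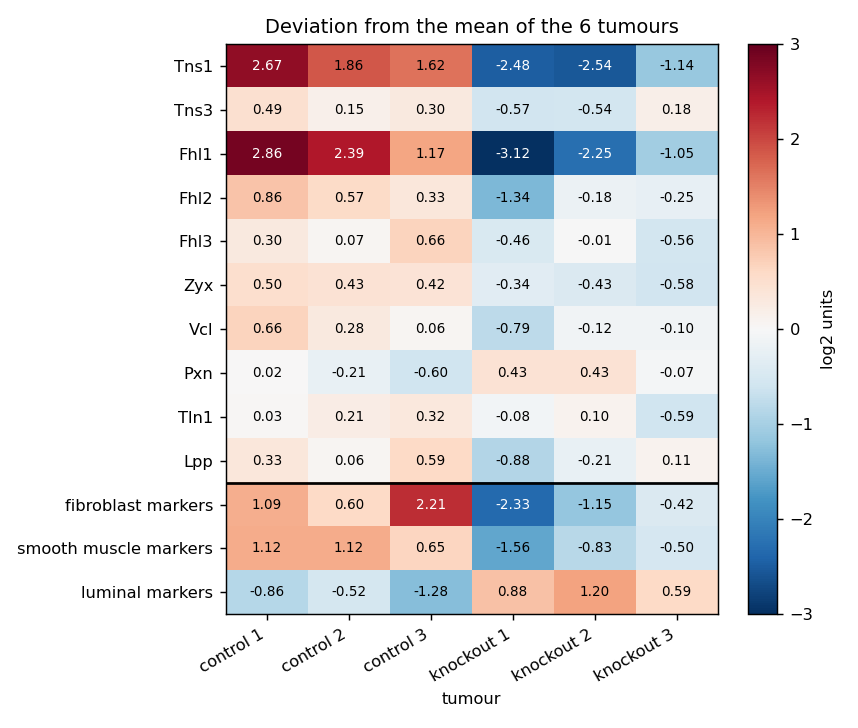
Deviation of each tumour (columns) from the mean of the 6 tumours, in log2 units (colour and printed value), for the 10 genes and, below the line, for the mean of the fibroblast, smooth muscle and luminal marker lists. Tns1 and Fhl1 reach 2.67 and 2.86 in control 1, and Pxn alone among the members has its lowest value in a control tumour.

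Other cell types gave few measured markers. Skeletal muscle, where Fhl1 and Fhl3 are abundant, had 5 of 8 markers measured, with Ckm, Myh4 and Tnnt3 not above background and 0 called by limma (2 at an unadjusted p below 0.05, median -0.87). Its summed signal ran from 598 to 1890 in control and from 253 to 541 in knockout tumours. Platelets, which are rich in talin and vinculin, had 3 of 5 markers measured and 0 called (2 at an unadjusted p below 0.05, median -0.80), with summed signals of 96 to 208 and of 68.5 to 74.3 and with Itga2b and Gp9 not above background. The 2 platelet markers at that unadjusted p, Ppbp and Gp1bb, were above background in no knockout tumour and passed the filter only through the control tumours. Of 7 endothelial markers Esam was the 1 measured, at -1.71 and not called. Of 4 measured basal markers Krt14 rose by 1.39 (adjusted p = 0.044) and the others were not called (median 0.75), with summed signals of 4740 to 11400 and of 13200 to 20200. Macrophage markers had 3 measured and 0 called (median -0.57), with Cd14 at 2.602 (adjusted p = 0.051, the 1 at an unadjusted p below 0.05) and Csf1r and Lyz2 at -0.57 and -2.08, chosen after their values were seen, and with summed signals of 805 to 4490 and of 3220 to 10000. Adipocytes had Lep alone measured, at -0.26, and 0 called at either threshold.

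The closest relatives of the members were not called in either direction. Of 12 relatives 8 were measured, with a median log2 difference of 0.02, and limma called 0 (4 at an unadjusted p below 0.05). Tns2 (-0.15) and Tns4 (-0.27), an epithelial tensin without the actin-binding part, gave small differences with adjusted p of 0.78 and 0.71. The Tns2 probe was dim, with means of 5.24 in control and 5.08 in knockout tumours, so it could show little of a fall. The zyxin relatives Trip6 (0.76 ± 0.30 SE), Limd1 (0.65 ± 0.22 SE) and Wtip (0.20), and the filamin-binding Fblim1 (0.70 ± 0.22 SE), were all above 0 (limma adjusted p from 0.094 to 0.64). For Trip6, Limd1 and Fblim1 all knockout tumours lay above all controls, where 17.2% of all genes did. Ajuba (-0.20, adjusted p = 0.66) and the second talin, Tln2 (-0.67 ± 0.26 SE, adjusted p = 0.16), lay below 0. Ajuba was also dim, above background in 2 of 3 control and 1 of 3 knockout tumours. Neither Tns2 nor Ajuba passed the filter at a detection p of 0.01. Fhl4, Fhl5 and Lpxn were not above background by the filter, and Tgfb1i1 was not analysed here.

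In the wider pathway, 88 of 113 listed genes were measured and limma called 20 lower (22.7%) and 5 higher (5.68%), with a median of -0.30. Over all genes 5.63% were called lower and 4.47% higher. Of these 25 calls 2 were also made with control 1 left out, 10 with control 3 left out and 15 when knockout 2 was dropped, and 8 when all probes were tested. Among integrin adaptors 2 of 18 rose and 2 fell. Lims2, a LIM-only partner of integrin-linked kinase, had log2 signals of 9.69, 8.47 and 9.29 in control and 5.19, 5.15 and 6.003 in knockout tumours. It fell by 3.70 (SE 0.37, limma adjusted p = 0.0032). Kank1, which binds talin, rose by 1.06 (adjusted p = 0.032) and Sorbs2, a vinculin-binding adaptor, by 1.98 (adjusted p = 0.034), though another Sorbs2 probe gave 0.21 and the first was above background in 1 of 3 control tumours. Fermt2, a kindlin that binds integrin tails beside talin, was the other fall, at the edge of the threshold (-0.69, adjusted p = 0.0499), and it was named after its values were seen.

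Of 17 other LIM proteins of the cytoskeleton 5 fell and 0 rose. Csrp2, a LIM protein of smooth muscle, fell by 2.39 (SE 0.39, adjusted p = 0.011). Pdlim1, which binds alpha-actinin, fell by 2.08 (SE 0.36, adjusted p = 0.013), and Pdlim2 by 1.77 (adjusted p = 0.043), with its kept probes between -2.32 and -0.18. Mical1 and Limk1, which act on actin turnover, were the other falls, named after their values were seen. Limma gave -1.61 for Mical1 (adjusted p = 0.043) and, at the edge of the threshold, -1.21 for Limk1 (adjusted p = 0.0499). Mical1 was above background in 2 of 3 knockout tumours. Of 18 actin linkers, by their brightest probe, 3 fell and 0 rose, namely Flnc, a filamin of muscle (-3.10 ± 0.53 SE, adjusted p = 0.013), Tpm2, a tropomyosin (-1.62 ± 0.28 SE, adjusted p = 0.013), and Palld, palladin (-1.16 ± 0.26 SE, adjusted p = 0.031). Of the 3 kept probes of Actn4, an alpha-actinin chosen after its values were seen, 1 was called higher, and their differences ran from 0.85 to 1.02.

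Integrin subunits, the receptors that talin and the tensins bind, went both ways. Of 13 measured 7 fell and 3 rose, with Itga7 at -1.55 (adjusted p = 0.012), and the epithelial subunits Itgb6 at 1.79 and Itgb4 at 1.56 (limma adjusted p = 0.0041 and 0.010). Itga7 was above background in 2 of 3 knockout tumours. The other rise was that of Itga6, chosen after its values were seen, which was not above background in any control tumour. It passed the filter only through the knockout tumours, so nothing is read from its call, at the edge of the threshold (limma adjusted p = 0.0499). Its knockout mean was 5.48 log2 units, close to background, so no fold is given. Of 14 genes of the SRF, YAP and TEAD axis 3 fell and 0 rose. Vgll3, a TEAD cofactor, fell by 2.51 (adjusted p = 0.017), and the matricellular genes Ccn1 and Ccn2 by 0.99 and 1.23 (adjusted p = 0.038 and 0.048). Srf (0.21, adjusted p = 0.60) and Yap1 (-0.33, adjusted p = 0.45), chosen after their values were seen, were not called. The medians of smooth muscle and fibroblast markers were -1.98 and -2.77, and their part in these calls was not tested.

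**Figure D5:**
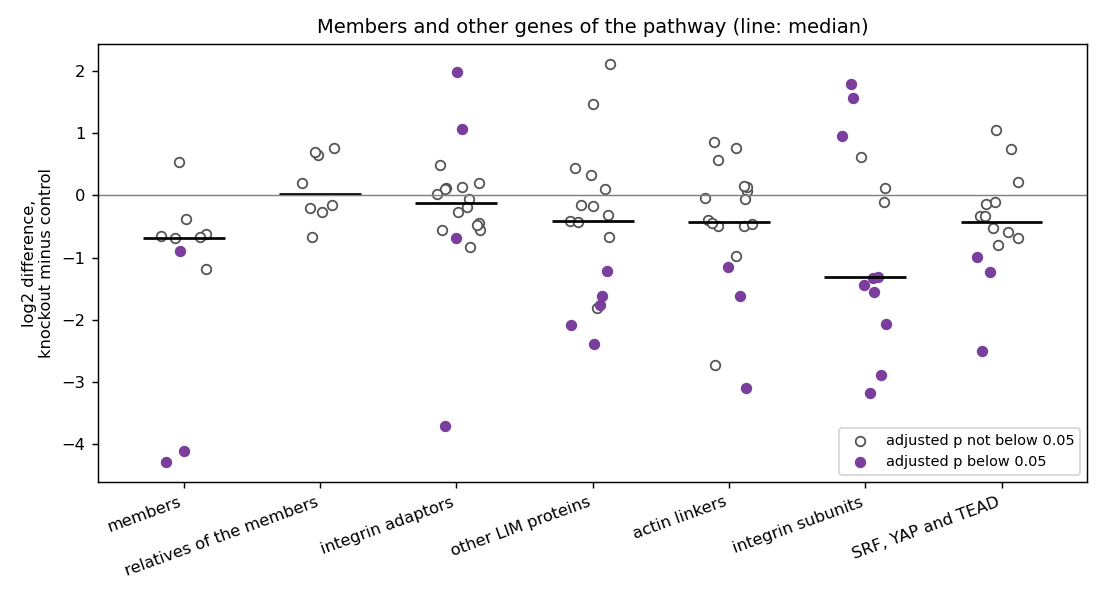
Log2 difference (y axis, knockout minus control) of each measured gene of the 10 members and of 6 lists of other pathway genes (x axis), with the list median as a bar. Filled points passed an adjusted p of 0.05 in limma. The relatives have 0 filled points, and the integrin subunits have them on both sides of 0.

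Of the 15 called pathway genes named here by rule, Lims2 and Itgb6 kept an adjusted p below 0.05 under all 13 alternatives, with adjusted p up to 0.022 and 0.030. Without control 1 the other 13 lost the call. Itgb4 (0.052), Itga7 (0.054) and Tpm2 (0.063) lost it only there. Csrp2, Pdlim1, Flnc and Vgll3 lost it also when all probes were tested (adjusted p from 0.056 to 0.081), and Pdlim1 also without knockout 2 (0.053), Flnc (0.051) and Vgll3 (0.061) also without control 3. Kank1, Sorbs2, Pdlim2, Palld, Ccn1 and Ccn2 lost it under 6 to 9 of the 13, with adjusted p up to 0.16. In the authors' values Lims2 was at -1.81, Itga7 at -0.41, Sorbs2 at 0.62, Pdlim2 at -1.12 and Itgb6 at 1.19, over 1.5 times smaller than here. Among the relatives the same held for Tln2 (-0.23), Limd1 (0.32), Tns2 (-0.04) and Ajuba (-0.05).

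Genes with the nearest pattern were found among 9119 others by the root mean squared difference of log2 signals over the 6 tumours, each gene centred on its mean. This distance includes the group difference. Nearest to Fhl1 were Tns1 (0.42 log2 units), the smooth muscle actin Actg2 (0.48) and Olfml2b (0.50). Nearest to Tns1 were Bcat1 (0.34), Hoxc9 (0.36) and Kif1a (0.38). Nearest to Fhl2 were Zswim7 (0.17), palladin, Palld (0.19), and Tmem97 (0.21). Nearest to Zyx were Jade1 (0.10), Pde4dip (0.12) and the kindlin Fermt2 (0.12). Members with small differences had closer neighbours, such as Fam98a for Vcl (0.05) and Hipk1 for Tln1 (0.03).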

How the data were processed

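The authors deposited a table of probe signal intensity, not normalized, and beside each signal a detection p-value, per the file headers. They also deposited normalized log2 values, with no account of the steps in the sources used here, and the submitters' processing notes name lumi 2.6.0. Those values ranked the probes of each array as its signals did (Spearman correlation 1), with medians of 7.40 to 7.41. There were 4 broken lines of signals, which were left out.

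Normalization used neqc (background inferred from detection p-values, offset 16, quantile step, log2) in limma 3.58.1 under R 4.3.3. The filter kept 15885 probes, those above background (detection p under 0.05) on 3 or more arrays. The contrast of knockout and control was fitted with lmFit and eBayes, two-sided, with Benjamini-Hochberg adjustment over these probes. The background floor, the lowest normalized signal of a probe above background on an array, lay between 4.90 and 5.00 log2 units. Values below it occur, and changes of dim probes are compressed near it. Precision rests on 3 tumours per group.

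Symbols came from the platform annotation, checked by gene number against GRCm38.p6 (0 changed). Genes and lists were chosen with earlier results of these data known. By rule the text names the members, their measured relatives and the 3 genes of smallest p in each other pathway list. Other genes of the pathway and marker lists that the text names were chosen after their values were seen. Markers are given as values beside the members. A summed signal is governed by the brightest genes of its list, such as Acta2 among the smooth muscle markers. Alternatives were cyclic loess, no filter, an offset of 50, signals without background correction, the authors' values, a detection p of 0.01, averaged probes, the replicate number as a block, and each tumour left out.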

Additional observations from a re-analysis of the deposited data

How the results depend on the processing

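As the same contrast chose the members, their calls support nothing. They numbered 3 with the authors' values, without background correction, with an offset of 50, with cyclic loess, without the filter, with the stricter filter and with probes averaged, and ran from 2 to 3 when a tumour was left out. Without the filter, with 45279 probes fitted and tested, the calls were 723 probes, 8 pathway genes and 7 markers, against 1461, 25 and 16. With a tumour left out they ran from 476 to 1564 probes, from 2 to 22 pathway genes and from 7 to 16 markers, lowest without control 1 in each case. Without control 3 there were 741 probes, and without knockout 2 there were 568. No label says that the replicate numbers pair tumours, and pairing was not tested. Deviations of same-numbered tumours 1, 2 and 3 correlated at 0.23, 0.09 and 0.06 across probes. Those of tumours with unlike numbers correlated at -0.20 to 0.08. Each knockout tumour correlated best with the control of its number, whereas control 3 correlated best with knockout 2. With the replicate block there were 1381 probes, 3 members, 19 pathway genes and 19 markers called. The members' differences kept their sign under all 14 alternatives except for Tns3, at 0.47 with its probes averaged. Leaving out a tumour moved Tns1 between -4.56 and -3.80 and Fhl1 between -4.83 and -3.79. Probes near the background floor, such as those of Tns1 in the knockout tumours, Fhl3 and Tln1, limit what the signal can show.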
